A study of Mus musculus with 9 samples.

Results

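Foxa2, Spink1, Calb1 and Aldh1a1 are genes associated with the glands of the uterus, and they were followed here in RNA from captured luminal epithelium. They were taken by symbol, as 4 of the 15158 rows of the deposited expression table. Luminal epithelium had been isolated by laser capture on pregnancy day 4 from females housed to an age of 8 weeks. The 9 libraries fell into 3 genotypes of 3 libraries each. The ePRAoe mice (Wnt7acre/+PgrALsL/+) carried an allele for overexpression of progesterone receptor isoform A, and the ePRBoe mice (Wnt7acre/+PgrBLsL/+) an allele for isoform B, each released by cre driven from the Wnt7a promoter. The Wnt7acre mice carried the cre alone and served as controls, so the driver was present in every group. Wnt7a is active in the epithelium of the developing uterus, from which luminal and glandular cells both derive. The labels number the libraries as bioreplicates and give no animal identifiers. The p-values below therefore measure the spread between libraries, and whether each library is from a separate animal is not stated.

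In the mouse uterus, glands bud from the luminal epithelium after birth and open into the lumen. FOXA2, a forkhead transcription factor, is found in the glandular and not in the luminal cells of the adult mouse uterus. Mice that lack it in the uterus lack functional glands and do not make the LIF that implantation needs. SPINK1 is a secreted Kazal-type inhibitor of trypsin. CALB1 is a calbindin, a cytosolic protein that binds and buffers calcium. ALDH1A1 is a cytosolic dehydrogenase that oxidises retinal to retinoic acid. Levels are given as FPKM, a count of fragments divided by gene length and by a depth, so genes can be compared per length. Where the value of 1 read could be found, it was the same in all 9 libraries, so the depth used was common to them. Any difference in depth between libraries would thus remain in the values.

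In mm10, Foxa2 lies on chromosome 2 from 148042877 to 148046969 on the minus strand and Aldh1a1 on chromosome 19 from 20492715 to 20643465 on the plus strand. Sequence before an annotated start is shown for Foxa2, the gland regulator, and for Aldh1a1, the member that was called higher in ePRAoe libraries with any library left out. RefSeq has 3 Foxa2 starts and 2 Aldh1a1 starts in its promoter table for GRCm38.p6, which is mm10. Each printed run is the 250 bases before 1 of these starts, read 5′ to 3′ on the strand of the gene. The Foxa2 run lies before the outermost of its starts, and the Aldh1a1 run before the inner of its starts, inside the span given above. These 2 of the 5 windows are shown because they hold a CCAAT box. Capitals mark a CCAAT box, which reads ATTGG where it lies on the other strand.
Foxa2, chr2:148046970-148047219, minus strand: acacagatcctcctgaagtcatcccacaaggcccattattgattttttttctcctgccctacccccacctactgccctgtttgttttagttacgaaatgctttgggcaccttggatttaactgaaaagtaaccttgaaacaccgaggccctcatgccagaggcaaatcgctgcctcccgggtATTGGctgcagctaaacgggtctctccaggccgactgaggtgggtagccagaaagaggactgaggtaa
Aldh1a1, chr19:20601718-20601967, plus strand: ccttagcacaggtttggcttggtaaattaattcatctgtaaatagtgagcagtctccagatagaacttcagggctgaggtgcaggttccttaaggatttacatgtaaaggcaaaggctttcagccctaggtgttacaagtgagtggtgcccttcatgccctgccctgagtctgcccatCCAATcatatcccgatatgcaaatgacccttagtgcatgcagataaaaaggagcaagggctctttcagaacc
The box began 68 bases before the start in Foxa2, on the opposite strand, and 72 bases before it in Aldh1a1. CCAAT was in 1 of the 3 Foxa2 windows and 1 of the 2 Aldh1a1 windows, and in 33.8% of 32851 RefSeq promoter windows of the same length on either strand. The 6-letter core AGAACA, bound by progesterone and glucocorticoid receptors as one arm of their element, was in 16.1% of all windows and in none of the 5 windows of these genes. The nuclear receptor core AGGTCA (14.0% of all windows) and the forkhead motif TGTTTAC (3.17%) were also in none of the 5, and TATAAA (12.4%) was in 1 Foxa2 window. Each motif was searched on both strands, and none of them contains another. These are matches of letters and carry no information on binding.

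The libraries had the expression of epithelium. All 12 epithelial markers fixed for the check (among them Epcam, Cdh1 and Krt8) were at 1 FPKM or more in every library, and their summed level ranged from 1604 to 2313 FPKM in ePRAoe, 1996 to 2220 in ePRBoe and 1990 to 2277 in Wnt7acre libraries. The 9 luminal markers (among them Wnt7a and Lpar3) summed to 597 to 863, 648 to 796 and 703 to 857 FPKM in the same order of genotypes. RNA of other cell types was present and differed between genotypes. The 15 stromal markers summed to 234 to 407 FPKM in ePRAoe and 417 to 558 in ePRBoe, against 99.0 to 141 in Wnt7acre libraries. The 12 immune markers summed to 97.9 to 138 FPKM in ePRAoe and 344 to 406 in ePRBoe, against 153 to 260 in Wnt7acre libraries. The 7 endothelial markers summed to 16.3 to 33.1, 49.3 to 72.6 and 14.8 to 22.3 FPKM, and the 6 smooth muscle markers to 16.6 to 30.2, 38.0 to 119 and 11.7 to 21.5 FPKM, in ePRAoe, ePRBoe and Wnt7acre libraries. Of 5 red blood cell genes only Alas2 was in the table, at 0.154 to 1.84 FPKM. In such captures, fewer cells of a type and less RNA per cell cannot be told apart. Pgr, the gene of the progesterone receptor, averaged 44.7 FPKM in ePRAoe and 40.8 in ePRBoe, against 9.28 in Wnt7acre libraries. The labels and the Pgr level thus go the same way (log2 difference 2.38, adjusted p = 0.00483, and 2.27, adjusted p = 0.0168, in limma with Benjamini-Hochberg adjustment), with no overlap between groups. The table is per gene and does not separate the isoforms.

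The 4 genes did not move together. Spink1 was lower in the ePRAoe libraries (2.703, 0.180 and 0 FPKM) than in any other library. Calb1 and Aldh1a1 were higher in ePRAoe than in Wnt7acre libraries. In ePRBoe libraries none of the 3 tested members passed the test against Wnt7acre. Foxa2 was low in every genotype and was not tested. The plot of each member by library shows the 9 values behind these statements.

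**Figure D1:**
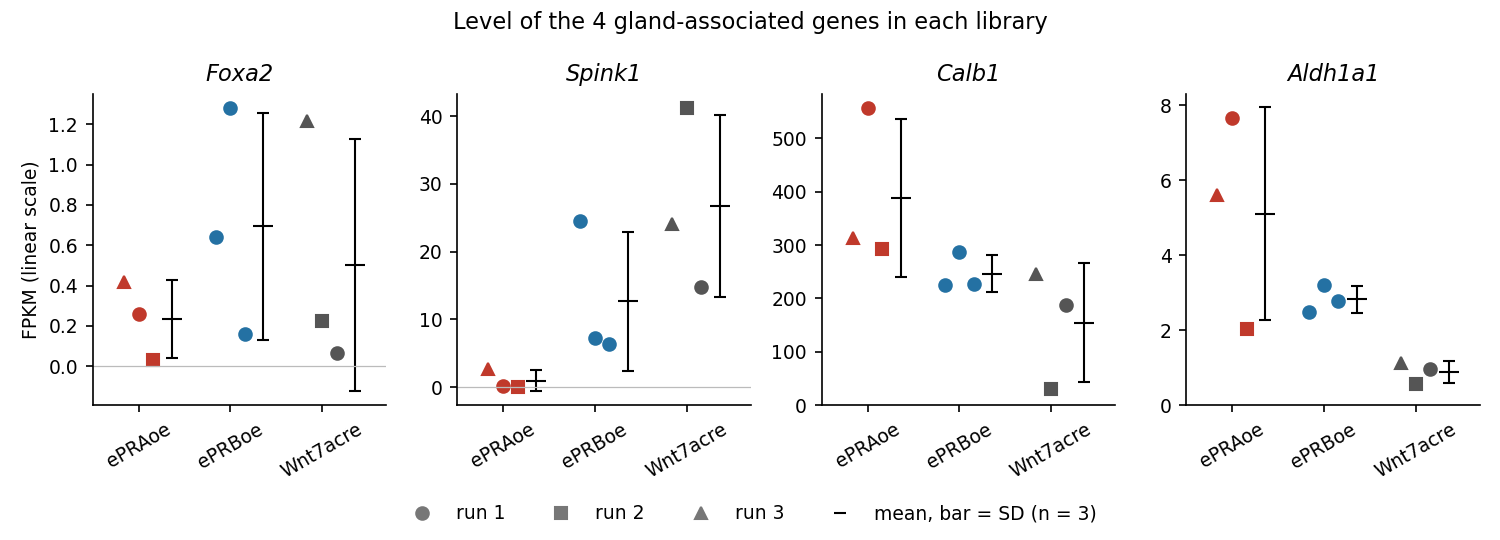
Expression of Foxa2, Spink1, Calb1 and Aldh1a1 in each library, in FPKM on a linear axis of its own for each gene, by genotype. Each symbol is 1 library, its shape gives the sequencing run, and the cross-bar and whiskers are the mean and SD of 3 libraries. The 3 ePRAoe points of Spink1 (0 to 2.703 FPKM) lie below all others, and the Wnt7acre points of Aldh1a1 (0.553 to 1.13 FPKM) lie below all others.

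Foxa2 was measured at 0.417, 0.257 and 0.032 FPKM in ePRAoe replicates 1, 2 and 3, at 0.641, 1.28 and 0.160 FPKM in ePRBoe replicates 1, 2 and 3, and at 1.22, 0.224 and 0.064 FPKM in Wnt7acre replicates 1, 2 and 3. Its values were whole multiples of 0.0321 FPKM in all 9 libraries, within 0.0146 of a read, so this step was taken as the value of 1 read. On that reading the ePRAoe libraries held 13, 8 and 1 reads, the ePRBoe libraries 20, 40 and 5, and the Wnt7acre libraries 38, 7 and 2. Each genotype thus had libraries with few reads and libraries with several times as many, and the groups overlapped in every pair. The means were 0.235 ± 0.193 FPKM in ePRAoe, 0.695 ± 0.563 in ePRBoe and 0.502 ± 0.626 in Wnt7acre libraries (SD, n = 3 each). Foxa2 stood between the 2.39 and the 26.5 percentile of all genes of its library. Only 2 libraries reached 1 FPKM, below the 3 that the test required.

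The model that adjusts for sequencing run gave Foxa2 log2 differences of −0.22 (SE 0.27) for ePRAoe against Wnt7acre, 0.39 (SE 0.33) for ePRBoe against Wnt7acre and 0.61 (SE 0.33) for ePRBoe against ePRAoe. These are on the log2(FPKM + 1) scale, as are all differences below, and this scale understates the change of genes near 0. With no filter on low values, the adjusted p was 0.646, 0.527 and 0.377 in the same order (limma). The exact two-sided permutation test gave p = 0.7, 0.7 and 0.3, where 3 against 3 libraries cannot go below 0.1. No difference in Foxa2 was detected at these few reads and with this spread between libraries. Without Wnt7acre replicate 3 the ePRBoe against Wnt7acre difference was −0.070. Without ePRAoe replicate 2, the ePRBoe against ePRAoe difference was 1.06. Foxa1 and Foxa3, the other FOXA genes fixed for the comparison, had no values under these symbols in the deposited data.

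Spink1 lies on chromosome 18 of mm10 from 43728082 to 43737557, on the minus strand. It was measured at 2.703, 0.180 and 0 FPKM in ePRAoe replicates 1, 2 and 3, at 24.5, 7.21 and 6.30 FPKM in ePRBoe replicates 1, 2 and 3, and at 24.1, 41.2 and 14.8 FPKM in Wnt7acre replicates 1, 2 and 3. Its step was 0.180 FPKM, which puts the ePRAoe libraries at 15, 1 and 0 reads, the ePRBoe libraries at 136, 40 and 35, and the Wnt7acre libraries at 134, 229 and 82. Every ePRAoe library lay below every library of the other genotypes, whereas ePRBoe and Wnt7acre overlapped. A floor of 3 reads equals 0.540 FPKM for Spink1, and ePRAoe replicates 2 and 3 were under it. The means were 0.961 ± 1.51 FPKM in ePRAoe, 12.7 ± 10.2 in ePRBoe and 26.7 ± 13.4 in Wnt7acre libraries (SD, n = 3 each).

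Between ePRAoe and Wnt7acre, Spink1 fell by 3.97 on the log2 scale (SE 0.59, adjusted p = 0.00580 in limma), a 15.7-fold lower level on the log2(FPKM + 1) scale. The exact permutation test gave p = 0.1, the smallest possible. Of all 12347 genes tested, 8.98% were called lower in this comparison and 7.2% higher. Within the sequencing runs, each with 1 ePRAoe and 1 Wnt7acre library, the difference was −3.74 in run 1, −5.40 in run 2 and −2.76 in run 3. It remained called with any of the 9 libraries left out, at −4.57 to −3.25 and an adjusted p of at most 0.0388. Immune markers were also lower in ePRAoe libraries, where 4 of 12 fell and none rose, and their part in the result was not tested.

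Between ePRBoe and Wnt7acre, Spink1 differed by −0.57 (SE 0.72, adjusted p = 0.673) and by −0.45 within run 1, the only run with ePRBoe libraries. Every ePRBoe library was above every ePRAoe library, with a difference of 3.40 (SE 0.72), but the adjusted p of 0.0924 over all genes tested missed the threshold of 0.05. Only 0.316% of genes were called higher in that comparison and 0.0081% lower, while 16.8% were higher with no overlap. The difference was 3.29 within run 1. It passed in limma without ePRAoe replicate 1 (3.70, adjusted p = 0.0431) or without Wnt7acre replicate 1 (3.70, adjusted p = 0.0427), which share run 3.

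Calb1, on chromosome 4 of mm10 from 15881264 to 15908064 on the plus strand, was one of the most abundant transcripts of the captured epithelium. It was measured at 314, 558 and 292 FPKM in ePRAoe replicates 1, 2 and 3, at 226, 287 and 227 FPKM in ePRBoe replicates 1, 2 and 3, and at 245, 29.98 and 188 FPKM in Wnt7acre replicates 1, 2 and 3. It ranked between 38 and 194 from the top of all genes in 8 libraries and 2374 in Wnt7acre replicate 2. Every ePRAoe library was above every library of the other genotypes, while ePRBoe overlapped with Wnt7acre. The means were 388 ± 147 FPKM in ePRAoe, 247 ± 34.9 in ePRBoe and 154 ± 111 in Wnt7acre libraries (SD, n = 3 each). Wnt7acre replicate 2 also had the lowest Sox9 and the lowest Aldh1a1 of the 9 libraries.

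Calb1 was higher in ePRAoe than in Wnt7acre libraries by 1.72 (SE 0.45, adjusted p = 0.0412 in limma), and the exact permutation p was 0.1. The within-run differences were 1.56, 3.24 and 0.35 in runs 1, 2 and 3, so the size rested on the run that holds Wnt7acre replicate 2. Without that library the difference was 0.96 (adjusted p = 0.125), and without its run partner ePRAoe replicate 3 it was also 0.96 (adjusted p = 0.119). The call was lost as well without ePRAoe replicate 2 (1.80, adjusted p = 0.136) or Wnt7acre replicate 3 (1.80, adjusted p = 0.135), and without ePRBoe replicate 1, 2 or 3 (1.72 each, adjusted p = 0.0644, 0.0631 and 0.0622). It held without ePRAoe replicate 1 (2.40, adjusted p = 0.00730) and without Wnt7acre replicate 1 (2.40, adjusted p = 0.00747). With genotype alone in the model the adjusted p was 0.121, with replicate number as a block in place of run 0.163, with only these 2 genotypes fitted 0.0824 and with no filter on low values 0.0509. The direction was kept in every fit.

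In ePRBoe against Wnt7acre libraries, Calb1 differed by 0.46 (SE 0.56, adjusted p = 0.657), and by 0.38 within run 1. Every ePRBoe library was below every ePRAoe library, the difference being −1.26 (SE 0.56, adjusted p = 0.278), and −1.18 within run 1. When only these 2 genotypes were fitted, the Calb1 difference of −1.18 reached an adjusted p of 0.0499 in limma. Of all genes tested, 5.8% were lower in ePRBoe than in ePRAoe libraries with no overlap.

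Aldh1a1 was measured at 5.61, 7.65 and 2.04 FPKM in ePRAoe replicates 1, 2 and 3, at 2.49, 3.20 and 2.77 FPKM in ePRBoe replicates 1, 2 and 3, and at 1.13, 0.553 and 0.956 FPKM in Wnt7acre replicates 1, 2 and 3. Its step of 0.0252 FPKM gives 223, 304 and 81 reads in the ePRAoe libraries, 99, 127 and 110 in the ePRBoe libraries, and 45, 22 and 38 in the Wnt7acre libraries. The rows of Aldh1a1, Calb1 and Spink1 stood out of the alphabetical order of the table, and the names were set against the gene length implied by the step. For Spink1 the implied length was 422 bases, against 729 for its GENCODE exons and 422 for these exons fitted within the RefSeq gene bounds. For Aldh1a1 it was 3020 bases, against 4937 and 5067 in the same order. The exons of RefSeq transcripts themselves were not compared. The implied length of Aldh1a1 thus matched neither, and the name of its row was not borne out by this check. All ePRAoe and all ePRBoe libraries were above all Wnt7acre libraries, and ePRAoe overlapped with ePRBoe through its replicate 3. The means were 5.10 ± 2.84 FPKM in ePRAoe, 2.82 ± 0.356 in ePRBoe and 0.880 ± 0.297 in Wnt7acre libraries (SD, n = 3 each).

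Aldh1a1 rose in ePRAoe against Wnt7acre libraries by 1.58 (SE 0.24, adjusted p = 0.00616 in limma), a 2.99-fold higher level on the log2(FPKM + 1) scale, with an exact permutation p of 0.1. The within-run differences were 2.14, 0.97 and 1.63 in runs 1, 2 and 3. The call was kept with any 1 of the 9 libraries left out, at 1.30 to 1.89 and an adjusted p of at most 0.0367. In ePRBoe against Wnt7acre it differed by 0.68 (SE 0.29), with an unadjusted p of 0.0499 and an adjusted p of 0.194 in limma, and by 0.96 within run 1. Without Wnt7acre replicate 3 this Aldh1a1 difference was 0.12 (adjusted p = 0.898), and with any other library left out it was 0.61 to 0.96. Of all genes tested, 6.41% were called higher in ePRBoe than in Wnt7acre libraries, 2.48% were called lower, and 23.5% were higher with no overlap. From ePRAoe, ePRBoe libraries differed in Aldh1a1 by −0.90 (SE 0.29, adjusted p = 0.176), and with only these 2 genotypes fitted it was −1.18 (adjusted p = 0.0494). That difference was −0.34 (adjusted p = 0.909) without ePRAoe replicate 2.

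Stromal markers also rose in both overexpressing genotypes against Wnt7acre (10 of 15 in ePRAoe and 12 of 15 in ePRBoe). Over all genes tested, 7.2% were called higher in ePRAoe and 6.41% in ePRBoe. The stromal sum was 234, 264 and 407 FPKM in ePRAoe replicates 1, 2 and 3, with Aldh1a1 at 5.61, 7.65 and 2.04 FPKM. In ePRBoe replicates 1, 2 and 3 it was 417, 501 and 558 FPKM, with Aldh1a1 at 2.49, 3.20 and 2.77. In Wnt7acre replicates 1, 2 and 3 it was 99.0, 111 and 141 FPKM, with Aldh1a1 at 1.13, 0.553 and 0.956. The part of stromal RNA in the Aldh1a1 difference was not tested.

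**Figure D2:**
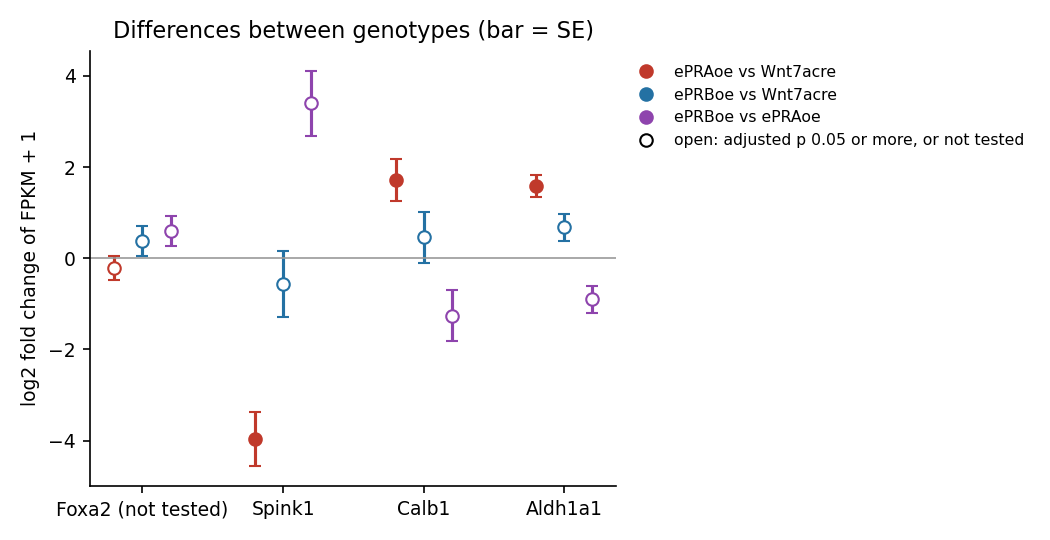
Log2 difference of each member in the 3 comparisons, on the log2(FPKM + 1) scale with the standard error of the fit as bars, and filled symbols for an adjusted p below 0.05. Spink1 (−3.97), Calb1 (1.72) and Aldh1a1 (1.58) are filled in ePRAoe against Wnt7acre, and no symbol is filled in the comparisons with ePRBoe.

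Thus 3 of the 4 members were tested, and against Wnt7acre 2 were called higher and 1 lower in ePRAoe, where 16.2% of all genes were called in either direction. None was called in ePRBoe against Wnt7acre, where 8.89% of all genes were called, or in ePRBoe against ePRAoe, where 0.324% were. All 3 were without overlap between ePRAoe and Wnt7acre, as were 28.9% of all genes tested (12.6% higher and 16.2% lower). Between ePRBoe and Wnt7acre 1 of the 3 was without overlap, beside 39.8% of all genes, and between ePRBoe and ePRAoe 2 were, beside 22.6%. The comparisons share libraries, ePRAoe and ePRBoe being set against the same 3 Wnt7acre libraries, so they are not independent. In order of level, the Calb1 and Aldh1a1 means ran ePRAoe, ePRBoe, Wnt7acre from high to low and the Spink1 means ran the other way. The neighbours ePRBoe and Wnt7acre did not differ beyond their spread for Spink1 and Calb1, and ePRAoe and ePRBoe overlapped for Aldh1a1.

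**Figure D3:**
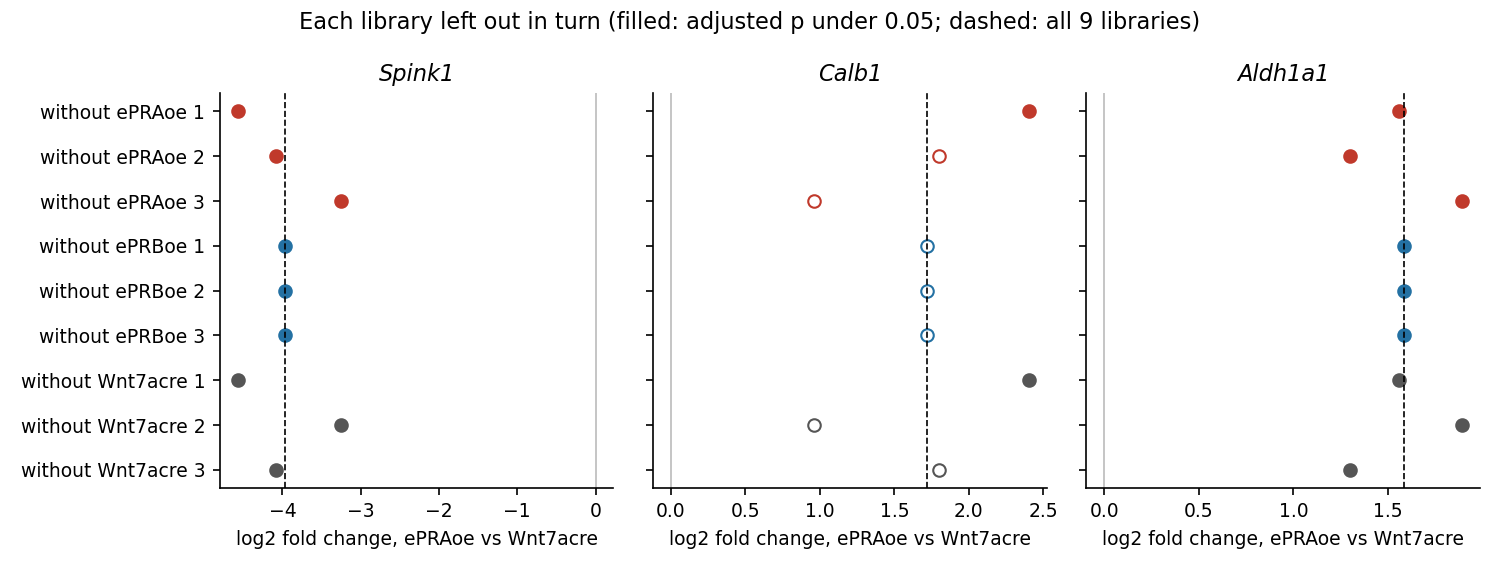
Log2 difference of Spink1, Calb1 and Aldh1a1 in ePRAoe against Wnt7acre with each of the 9 libraries left out in turn, filled where the adjusted p was below 0.05. Spink1 (−4.57 to −3.25) and Aldh1a1 (1.30 to 1.89) stay filled throughout, and Calb1 (0.96 to 2.40) is filled in 2 of the 9 fits.

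Of the other 8 gland genes fixed for the comparison, Sox9 and Slc18a2 were above 1 FPKM in most libraries, and the others were low or were high in few libraries. Of the 12 genes in the list, members included, 6 passed the filter. Beyond the members, none of the tested genes was called in any comparison of the fit of all 9 libraries. With only the 2 genotypes fitted, and likewise without ePRBoe replicate 1, 2 of the 6 were called lower in ePRAoe against Wnt7acre. Calb1 and Aldh1a1 stayed higher in both fits, so a gene beyond the members was called lower there with Spink1. The median difference of the 6 tested genes was 0.14 in ePRAoe against Wnt7acre, 0.54 in ePRBoe against Wnt7acre and 0.07 in ePRBoe against ePRAoe, beside −0.03, 0.10 and 0.15 over all genes tested. The filter favours genes that are high in at least 1 genotype, so these medians only describe the genes that passed.

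Lif, the cytokine that glands release before implantation, was at 0 to 0.351 FPKM in the 9 libraries, at most 20 reads. Cxcl15, a chemokine made by mouse uterine glands, was at 0 to 0.250 FPKM in ePRAoe and 0.107 to 0.608 in ePRBoe libraries, and at 8.47, 0.036 and 0 FPKM in Wnt7acre replicates 1, 2 and 3. The 237 Cxcl15 reads of Wnt7acre replicate 1 thus stood alone, in the library that also had the most Foxa2 of its genotype. Prss28 and Prss29, the implantation serine proteases made by glands, peaked together in ePRBoe replicate 1. Prss28 was at 0 FPKM in all ePRAoe libraries, at 12.1, 0 and 0.319 FPKM in ePRBoe replicates 1, 2 and 3, and at 0.383, 1.34 and 0.383 FPKM in Wnt7acre replicates 1, 2 and 3. Prss29 was at 0, 0 and 0.064 FPKM in ePRAoe, at 25.6, 0.451 and 0.515 in ePRBoe and at 1.87, 4.12 and 1.09 in Wnt7acre libraries. All ePRAoe libraries had less Prss29 than any other library. The difference from Wnt7acre (−1.62, SE 1.03, adjusted p = 0.329 in limma) did not pass the test in the fit of all 9 libraries.

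Sox9, a transcription factor of gland cells and progenitors, overlapped between all genotypes, at 6.70, 2.00 and 2.16 FPKM in ePRAoe, 7.88, 1.85 and 1.89 in ePRBoe and 5.48, 0.238 and 2.13 in Wnt7acre libraries. Slc18a2, a vesicular monoamine transporter, was at 1.54 to 2.78 FPKM throughout. Ttr, which encodes transthyretin, was at 0 FPKM in all Wnt7acre libraries and at most 0.809 elsewhere, and Wfdc3 reached 1.95 FPKM in ePRAoe replicate 2 and was below 1 FPKM elsewhere. In the heat map of these genes, the high values of Cxcl15 and of the Prss28 and Prss29 pair fall in different libraries.

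**Figure D4:**
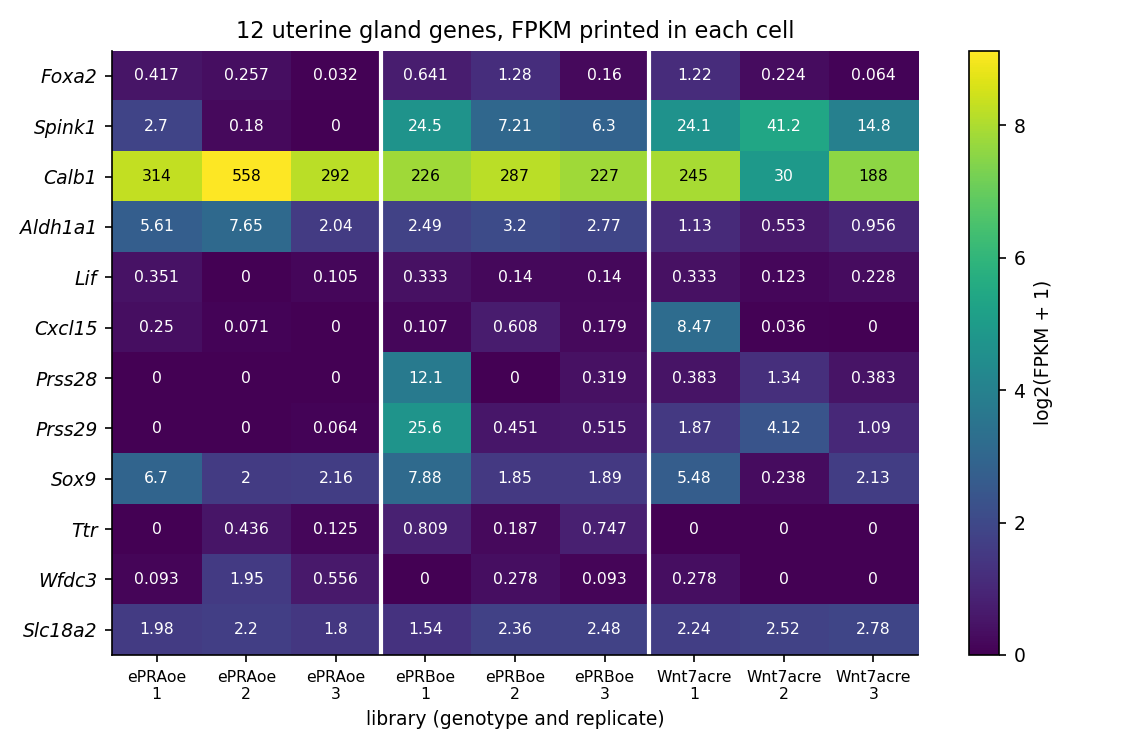
Level of the 12 uterine gland genes in each of the 9 libraries, as colour on the log2(FPKM + 1) scale with the FPKM printed in each cell, and the libraries grouped by genotype. Calb1 is the brightest row in all libraries except Wnt7acre replicate 2, where Spink1 is brighter, and Cxcl15 in Wnt7acre replicate 1 and Prss28 and Prss29 in ePRBoe replicate 1 stand out in their rows.

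SPINK1 belongs to a family of Kazal-type inhibitors. Of 13 listed genes, only Spink1, Spink8 and Spink12 had values under their symbols in the deposited data. Spink8 went the opposite way to Spink1. It was at 30.2, 187 and 89.7 FPKM in ePRAoe and at 137, 233 and 273 FPKM in ePRBoe replicates 1, 2 and 3, against 4.93, 1.57 and 2.13 FPKM in Wnt7acre libraries. It rose in ePRAoe by 4.48 (adjusted p = 0.00439) and in ePRBoe by 5.33 (adjusted p = 0.00883). The ePRBoe difference was 3.91 (adjusted p = 0.108) once Wnt7acre replicate 3 was left out. Spink12 (0 to 2.39 FPKM) was not called. The family's 3 tested genes thus held 1 that rose and 1 that fell in ePRAoe (median 0.52), 1 that rose in ePRBoe against Wnt7acre (median 0.88) and none called in ePRBoe against ePRAoe (median 0.85).

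Serine proteases, which such inhibitors act on, and their membrane-bound inhibitors were lower where they were called against Wnt7acre in the fit of all 9 libraries. Of 20 listed genes 13 were tested, and in ePRAoe against Wnt7acre 6 fell and none rose (median −0.67), while over all genes tested 8.98% were called lower and 7.2% higher (median −0.03). Prss35, a secreted protease-like protein, was at 0, 0 and 0.151 FPKM in ePRAoe and 0.904, 0.181 and 0.060 in ePRBoe, against 9.64, 25.8 and 7.56 FPKM in Wnt7acre libraries. It fell by 3.68 in ePRAoe (adjusted p = 0.00171) and by 2.97 in ePRBoe (adjusted p = 0.00885). Prss35 reached 1 FPKM in the 3 Wnt7acre libraries only, so it passed the filter through the genotype where it was high, and it dropped out of the test when any of these was left out. Spint1, a membrane inhibitor of epithelial serine proteases, fell by 1.30 in ePRAoe (adjusted p = 0.00517), and the transmembrane proteases Tmprss4 and Tmprss2 fell by 1.99 and 2.07 (adjusted p = 0.00706 each). The Tmprss2 call was lost, at an adjusted p of up to 0.0519, without ePRAoe replicate 2 or 3 or Wnt7acre replicate 2 or 3. Without those 4 libraries in turn the count that fell was 3, 3, 2 and 2.

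Of the same 13 genes, 3 fell in ePRBoe against Wnt7acre and none rose (median −0.45, beside 2.48% of all genes called lower and a median of 0.10), namely Prss35, Spint1 (−1.22, adjusted p = 0.0185) and Tmprss4 (−1.97, adjusted p = 0.0230). The Spint1 and Tmprss4 calls were lost, at adjusted p of up to 0.140 and 0.166, without ePRAoe replicate 2, ePRBoe replicate 2 or 3 or Wnt7acre replicate 3. Without ePRBoe replicate 2, and likewise without ePRBoe replicate 3, 1 gene of the list rose and 1 fell. Between ePRBoe and ePRAoe no protease or inhibitor was called (median 0.53), Spint2 and Spint1 being at 0.15 (adjusted p = 0.764) and 0.07 (adjusted p = 0.879).

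Among genes of calcium binding and transport, Calb1 was in the minority that rose in ePRAoe libraries. Of 17 calcium genes 12 were tested, and in ePRAoe against Wnt7acre 2 rose, 5 fell and 5 were not called (median −0.84). The shares and median over all genes are those given above for this comparison. With a library left out, 1 or 2 rose and 3 to 7 fell. Trpv6, the apical calcium channel, was at 7.97, 3.53 and 5.89 FPKM in ePRAoe and 10.6, 3.48 and 10.2 in ePRBoe, against 36.6, 202 and 93.0 FPKM in Wnt7acre libraries, and fell by 3.77 in ePRAoe (adjusted p = 0.00587). The sodium-calcium exchanger Slc8a1 fell by 1.97 (adjusted p = 0.00513) and the plasma membrane calcium pump Atp2b1 by 0.87 (adjusted p = 0.00622). Stim1, the sensor of stored calcium, rose by 0.96 (adjusted p = 0.00676). S100g, the small vitamin D-dependent calbindin, was at 980, 763 and 839 FPKM in ePRAoe and 1458, 1036 and 1392 in ePRBoe, against 2068, 2854 and 2459 FPKM in Wnt7acre libraries. The calbindin genes thus moved in opposite directions in ePRAoe, where S100g fell by 1.51 (adjusted p = 0.00954). That call was lost without ePRAoe replicate 2 or 3 or Wnt7acre replicate 2 (adjusted p up to 0.0595). The Calb1 call was lost in 7 of the 9 fits with a library left out, those named here among them.

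Against Wnt7acre, 1 calcium gene rose and 3 fell in ePRBoe libraries (median −0.71), where 6.41% of all genes were called higher and 2.48% lower. The pump Atp2b4 rose by 1.20 (adjusted p = 0.0221), and Atp2b1 fell by 0.96 (adjusted p = 0.0144), Slc8a1 by 1.74 (adjusted p = 0.0227) and Trpv6 by 3.19 (adjusted p = 0.0309). None of these 4 was called without ePRAoe replicate 2, ePRBoe replicate 2 or 3 or Wnt7acre replicate 3, the adjusted p reaching 0.0842 for Atp2b4, 0.102 for Atp2b1, 0.245 for Slc8a1 and 0.274 for Trpv6. Trpv6 was also lost without ePRAoe replicate 3, ePRBoe replicate 1 or Wnt7acre replicate 2, and Atp2b4 without ePRBoe replicate 1. No calcium gene was called in ePRBoe against ePRAoe (median 0.39), S100g being at 0.66 (adjusted p = 0.310).

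Of 26 retinoid genes 18 were tested, and in ePRAoe against Wnt7acre 5 rose, Aldh1a1 among them, 1 fell and 12 were not called (median −0.06). Over all genes tested 7.2% were called higher and 8.98% lower (median −0.03). Stra6, the membrane receptor that takes up retinol, was at 48.2, 32.8 and 24.1 FPKM in ePRAoe and 37.7, 43.4 and 58.5 in ePRBoe, against 11.9, 7.03 and 8.50 FPKM in Wnt7acre libraries. It rose by 1.80 in ePRAoe (adjusted p = 0.00208) and by 2.29 in ePRBoe (adjusted p = 0.00317). Aldh1a2, the related retinal dehydrogenase, was at 14.3, 23.3 and 35.7 FPKM in ePRAoe and 24.7, 17.6 and 28.2 in ePRBoe, against 3.96, 9.06 and 9.87 FPKM in Wnt7acre libraries. It rose by 1.55 in ePRAoe (adjusted p = 0.00447), and its level was above that of Aldh1a1 in every library. Lrat, which esterifies retinol for storage, fell by 2.75 in ePRAoe (adjusted p = 0.00632).

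Against Wnt7acre, 6 retinoid genes rose in ePRBoe libraries and none fell (median 0.54), without Aldh1a1 among them, while over all genes tested 6.41% were called higher and 2.48% lower (median 0.10). With no run term, or with a replicate block in its place, 6 rose and 1 fell. Besides Stra6 these included Rarres2, which encodes chemerin (2.503, adjusted p = 0.00555) and Aldh1a2 (1.34, adjusted p = 0.0211). Aldh1a2 no longer passed when Wnt7acre replicate 3, ePRAoe replicate 2 or ePRBoe replicate 1 or 3 was left out (adjusted p up to 0.0843). The count that rose was 3 without ePRAoe replicate 2, ePRBoe replicate 3 or Wnt7acre replicate 3, and in ePRAoe against Wnt7acre it was 3 without ePRAoe replicate 3 or Wnt7acre replicate 2. No retinoid gene was called in ePRBoe against ePRAoe (median 0.59). Cyp26a1, which breaks down retinoic acid, was there at 0.05 (adjusted p = 0.982), and Rdh10, which makes retinal from retinol, at 1.60 (adjusted p = 0.0954). Cyp26a1 averaged 222 FPKM in ePRAoe and 172 in ePRBoe, against 609 in Wnt7acre libraries. Its difference from Wnt7acre was −2.32 in ePRAoe (adjusted p = 0.0590 in limma), and it was called in neither genotype in the fit of all 9 libraries. The stromal sums given above were higher in the same genotypes as Stra6, Aldh1a2 and Rarres2, and their part in these differences was not tested.

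**Figure D5:**
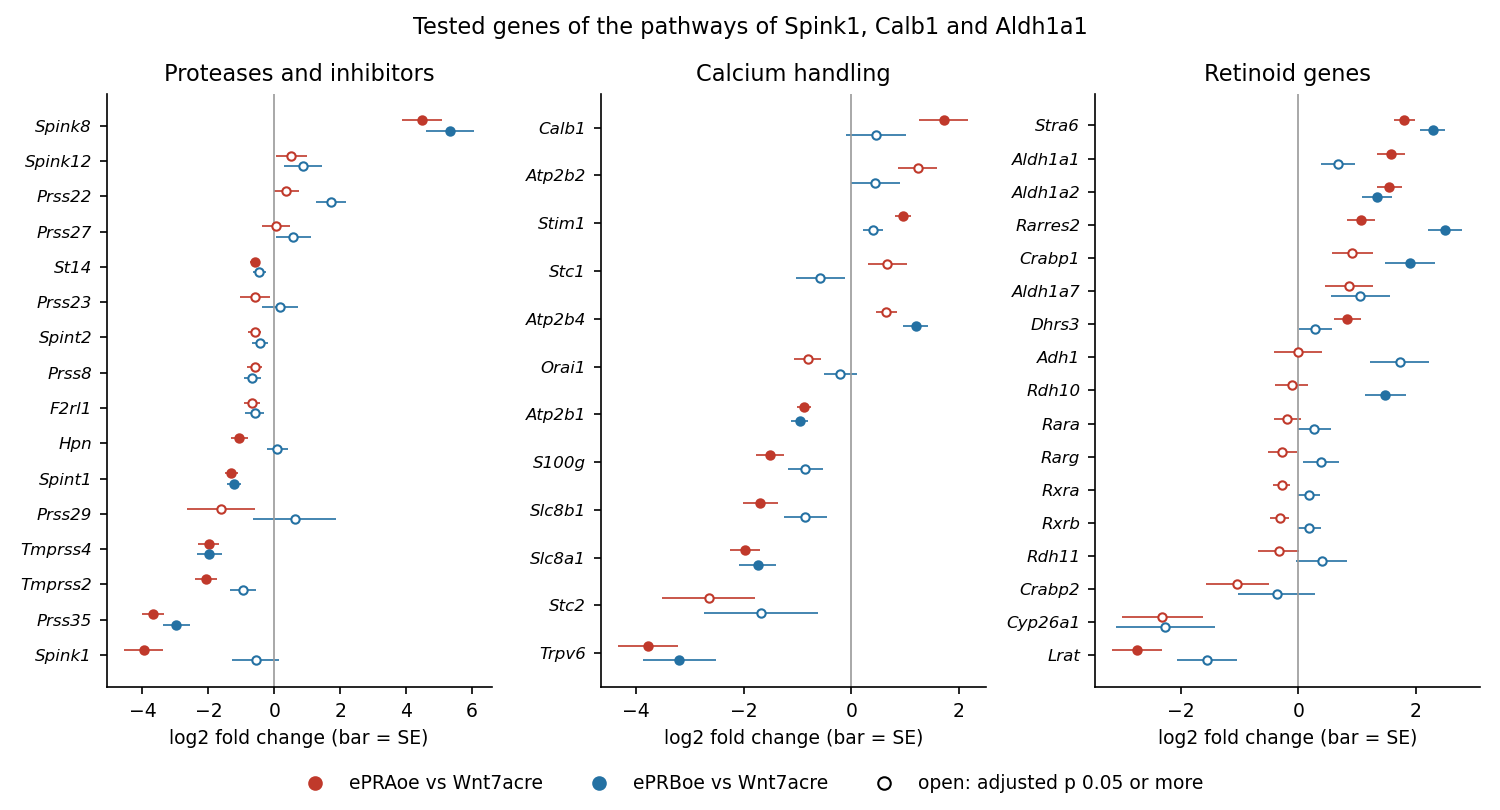
Log2 difference in ePRAoe against Wnt7acre and in ePRBoe against Wnt7acre for tested genes of the inhibitor and protease, calcium and retinoid lists (1 retinoid gene is not shown), on the log2(FPKM + 1) scale, filled where the adjusted p was below 0.05. Bars are the SE. Among the filled ePRAoe symbols, Calb1 (1.72) and Stim1 (0.96) lie above 0 and the other calcium genes below it, as do all filled proteases and membrane inhibitors, while Spink8 (4.48) and Spink1 (−3.97) lie at opposite ends.

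The profiles most like each member over the 9 libraries were sought among the 8258 tested genes that averaged 5 FPKM or more and had no predicted-gene symbol (Gm with digits, or ending in Rik), by Pearson's r of log2(FPKM + 1). These values describe likeness over 9 libraries that share genotypes and runs, and the best of so many genes is high by selection. Spink1 was most like Ptpmt1 (0.976), Acp5 (0.9701), Pmm1 (0.963), Max (0.959) and Sp110 (0.956). Calb1 was most like Hddc2 (0.981), Zfand1 (0.974), Tpd52l1 (0.972), Srgap3 (0.9698) and Tmsb4x (0.968). All 5 of the genes most like Calb1 also had their lowest level in Wnt7acre replicate 2. Aldh1a1 was most like Dnmbp (0.975), Syce2 (0.974), Tmem9b (0.971), Mcrs1 (0.965) and Myzap (0.962), and Foxa2, at its few reads, like Ppp6c (0.926), Mocs2 (0.879), Ttf1 (0.875), Rnf180 (0.861) and Atpaf2 (0.851).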

How the data were processed

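RNA from 9 laser-captured luminal epithelium samples had been sequenced, and the authors deposited 1 table of FPKM per gene symbol. The submitters' processing notes name STAR 2.5.2b, featureCounts 1.5.0-p1, edgeR 3.28.0, limma 3.42.2 and the build mm10. Which annotation, strand setting and gene lengths went into the FPKM is not given in the sources used. FPKM columns summed to 272213 to 314010 per library, and 11074 to 12300 genes reached 1 FPKM. Depth is not stated, but values of low genes fell on whole multiples of a step common to all 9 libraries (within 0.1 read; 4 of 509 shuffled sets did so), which gave the implied reads. A common step means that the same depth was used for all 9 libraries. Whether they had been brought to equal depth beforehand is not stated. No counting interval was computed. No step was found for Calb1.

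Values were taken as log2(FPKM + 1). Genes that reached 1 FPKM in 3 or more libraries (12347) were fitted with limma 3.58.1 in R 4.3.3 over all 9 libraries, with terms for genotype and sequencing run, trend-moderated variances, two-sided tests and Benjamini-Hochberg adjustment at 0.05 over all genes tested. Every adjusted p here is from that tool. Per the labels, run 1 comprised all 3 ePRBoe libraries with ePRAoe replicate 2 and Wnt7acre replicate 3. Run 2 comprised ePRAoe replicate 3 with Wnt7acre replicate 2, and run 3 comprised replicate 1 of both these genotypes. ePRBoe against the other genotypes therefore rests mainly on run 1. The model was tried before use on simulated data with less spread than observed, no run effect and changes only in well-expressed genes of ePRAoe. That trial does not cover low genes or the comparisons with ePRBoe. Exact two-sided permutation tests of the member means stand beside it.

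The members and all lists were chosen with earlier results of these data known. Named genes were the members, Pgr, any gene of the gland list, in each other list up to 4 called genes with the largest moderated t (or the 2 highest-expressed where fewer than 2 passed), and the 5 genes most like each member. The values of 1 retinoid gene that the rule names are not reported here, and the counts and medians of that list include it. Positions are from GENCODE M21 and promoter windows from RefSeq. Of the 15158 rows, 4239 stood out of alphabetical order, Spink1, Calb1 and Aldh1a1 among them. Names were set against the length that the step implies at a depth of 13.2 M reads, taken from the Foxa2 step and length. The lengths were those of the GENCODE exons, as annotated and as fitted within the RefSeq gene bounds. No RefSeq transcript was used, and no tolerance was fixed. Spink1 matched the fitted and not the annotated length, and Aldh1a1, Wfdc3 and Slc18a2 matched neither. Prss28 (1190 bases, against 1218 for both) and Ttr (1221 bases, against 1186 annotated and 2262 fitted) were off by less. Calb1 had no step to use. Alternatives covered the pseudocount, the filter, the run term, the scaling, the samples fitted and each library left out.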

Additional observations from a re-analysis of the deposited data

How the results depend on the processing

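Spink1 kept its direction and call in ePRAoe against Wnt7acre under all 18 alternatives, and Aldh1a1 under all 17 that gave a value (a mean of at least 5 FPKM left out Aldh1a1 and Foxa2). Calb1 kept its difference of 1.72 but lost the call with no filter (adjusted p = 0.0509), no run term (0.121), the replicate block (0.163) and only the 2 genotypes compared (0.0824), and left-out libraries gave 0.96 to 2.40. Calb1 and Aldh1a1 in ePRBoe against ePRAoe passed only with the 2 genotypes compared, each at −1.18. Left-out libraries gave 2.83 to 3.73 for Spink1 and −1.60 to −0.88 for Calb1 in that comparison. Foxa2, which was not tested, moved to 1.16 (ePRBoe against Wnt7acre) and 1.67 (ePRBoe against ePRAoe) with a pseudocount of 0.1 and to 1.15 (ePRBoe against ePRAoe) with TPM scaling. With libraries left out Foxa2 ranged from −0.070 to 0.63 in ePRBoe against Wnt7acre and from 0.36 to 1.06 in ePRBoe against ePRAoe. The cause of these changes was not tested.

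Over all genes, 1998 were called in ePRAoe against Wnt7acre, with 1113 under the replicate block, 1116 with only the 2 genotypes and 723 to 2705 with a library left out. In ePRBoe against Wnt7acre 1098 were called, with 653 at a mean of at least 5 FPKM, 1786 with no run term and 231 to 1604 with a library left out. In ePRBoe against ePRAoe 40 were called, with 19 under no filter, 7 with no run term, 4 under the replicate block, 585 with only the 2 genotypes, 22 with median-of-ratios scaling, 15 with quantile normalization, 25 with TPM scaling and 0 to 576 with a library left out. In ePRBoe against Wnt7acre the split was 792 higher and 306 lower, against 619 and 479 with median-of-ratios scaling and 568 and 451 with quantile normalization. The median of all genes was 0.10 there in the main scaling and −0.03 with median-of-ratios. In ePRBoe against ePRAoe it was 0.15 and −0.02. Same-numbered libraries had correlations of their deviations from −0.23 to 0.17. Libraries of the same run had −0.26 to 0.31, so this measure cannot show whether same-numbered libraries are paired. The block lost the Calb1 call in ePRAoe and no other call of a member. The values of Foxa2 (1 to 40 reads) and of Spink1 in ePRAoe (0 to 15 reads) rest on few reads, and both varied widely within a genotype.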
